A study of Mus musculus with 5 samples.

Results

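The transcripts described here encode the enzymes that build cholesterol and fatty acids, the SREBP transcription factors that drive them, and the transporters that export sterol. They were 36 genes taken by name from a list that was chosen with earlier results of these data known. All 36 matched 1 Ensembl gene ID each among the 55335 in the count table. All passed the low-count filter that left 16380 genes tested. They were ordered by role: 8 genes from acetyl-CoA to isoprenoids, 11 from squalene to sterols, 5 SREBP regulators, 1 sterol transfer protein, 9 genes of fatty acid synthesis and 2 sterol exporters. The cells were primary lung fibroblasts, the matrix-making connective tissue cells of the lung, isolated from mice and kept in culture. The 3 TGF-β1 libraries came from cells given 5 ng/mL of this cytokine, a driver of fibroblast activation, for 24 h, and the 2 control libraries from cells given vehicle. The labels do not state the strain, age or sex of the mice, nor whether replicates came from separate animals, so a p-value here reflects only how these 5 libraries vary, which may be technical.

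SREBPs are made as precursors in the membrane of the endoplasmic reticulum. When sterol is scarce, SCAP escorts them to the Golgi, where proteases release the active factor, and when sterol is plentiful the INSIG proteins hold SCAP back. The product of Srebf2 acts mainly on sterol genes and the main product of Srebf1 on fatty acid genes, and the nuclear receptor LXR raises the exporters Abca1 and Abcg1, as well as Srebf1, when oxysterols build up. In lung, lipid-storing fibroblasts are known to supply lipid to the epithelial cells that make surfactant.

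Library totals ran from 34283288 to 43163967 counts. Of 16380 tested genes, 44.5% passed an adjusted p of 0.05 by edgeR's quasi-likelihood test, 21.3% higher and 23.2% lower with TGF-β1, and the median log2 fold change over all tested genes was 0.00. In 33.0% of tested genes every TGF-β1 library lay below both controls, and in 31.6% every one lay above. The 5 TGF-β1 response genes on the marker list were all higher. Fibroblast markers were mostly abundant, with Col1a1 averaging 16482 CPM (counts scaled to a common library size) with TGF-β1 and 10219.6 CPM in controls. Lum was under 1 CPM in every library. Of the 8 fibroblast markers, 4 were higher with TGF-β1 and 4 lower. Pdgfra, 1 of the lower ones, averaged 43.6 CPM with TGF-β1 and 176.7 CPM in controls (log2 fold change −2.02). The libraries also held macrophage and mesothelial transcripts, whose summed levels were lower with TGF-β1. The 5 leukocyte markers summed to 1340.1 to 1375 CPM in TGF-β1 libraries and 2232 to 2298 CPM in controls. Most of that sum was Lyz2, which averaged 1137 CPM with TGF-β1 and 1994 CPM in controls. The 6 mesothelial markers summed to 159 to 178 CPM with TGF-β1 and 1217 to 1292 CPM in controls. In such bulk libraries fewer cells of a type and less RNA per cell cannot be told apart. Endothelial markers summed to at most 3.42 CPM. In all 5 libraries, 3 of 6 epithelial markers and 3 of 8 adipocyte markers (Adipoq, Plin4 and Cidec) had 0 counts. Of the other epithelial markers, Krt8 had 32.7 to 37.6 CPM over all libraries and did not pass. Cdh1 was higher, at 3.92 CPM with TGF-β1 and 2.03 CPM in controls (log2 fold change 0.95), and Epcam was at most 0.0517 CPM.

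The stretches upstream of 3 members are shown: Hmgcs1 and Sc5d for the sterol steps that were lower, and Fasn for the fatty acid genes that were higher. Each is the 250 bases before the RefSeq transcription start in GRCm38.p6, written 5′ to 3′ on the strand of the gene. Their positions are chr13:119690101-119690350 (plus strand), chr9:42264301-42264550 (minus) and chr11:120824548-120824797 (minus), and none of these bases lies inside the gene as GENCODE annotates it. Capitals mark 4 motifs on either strand: TCACNCCAC, the core of the sterol regulatory element bound by SREBP, CCAAT, bound by NF-Y, GGGCGG, the GC box bound by Sp1, and CACGTG, the palindromic E-box. NF-Y and Sp1 are known partners of SREBP on sterol gene promoters.
Hmgcs1: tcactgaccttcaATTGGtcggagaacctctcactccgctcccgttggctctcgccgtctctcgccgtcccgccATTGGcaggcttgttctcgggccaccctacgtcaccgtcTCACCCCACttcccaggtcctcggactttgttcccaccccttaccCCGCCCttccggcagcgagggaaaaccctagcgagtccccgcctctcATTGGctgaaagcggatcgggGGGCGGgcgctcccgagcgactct
Sc5d: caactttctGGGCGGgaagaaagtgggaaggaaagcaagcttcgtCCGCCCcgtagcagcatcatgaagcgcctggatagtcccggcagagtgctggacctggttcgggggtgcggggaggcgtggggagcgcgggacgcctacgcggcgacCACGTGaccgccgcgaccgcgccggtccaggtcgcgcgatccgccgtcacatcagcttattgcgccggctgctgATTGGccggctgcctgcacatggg
Fasn: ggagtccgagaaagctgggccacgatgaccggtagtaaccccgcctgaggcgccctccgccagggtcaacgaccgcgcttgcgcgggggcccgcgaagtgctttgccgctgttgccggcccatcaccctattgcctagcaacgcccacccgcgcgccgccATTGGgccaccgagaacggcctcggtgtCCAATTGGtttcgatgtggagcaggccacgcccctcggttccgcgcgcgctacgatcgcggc

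The Hmgcs1 stretch held the SREBP core at positions -137 to -129, together with 3 CCAAT and 2 GC boxes. No other window among the members held those letters: 1 of 36 windows (2.78%), for 28 members with a RefSeq window and some with several, against 1.05% of all 32851 windows. CCAAT was in 22 of the 36 member windows (61.1%) and 33.8% of all windows. It was in 15 of the 19 windows of sterol steps (78.9%) and 2 of 6 of fatty acid genes (33.3%). Scd1, Scd2 and Fads1 had no window. With the 50 bases after the start included, CCAAT was in 3 of 6 windows of fatty acid genes (50%) and 15 of 19 of sterol steps. GGGCGG was in 26 of 36 (72.2%) and 32.7% of all windows. CACGTG was in 6 of 36 (16.7%) and 6.02% of all windows. In the Fasn stretch the capitals are 3 CCAAT boxes, of which a pair overlap. RefSeq and GENCODE place starts differently, and 22 of the 36 member windows have at least 1 base inside the GENCODE gene. These shares describe letters in windows not matched for base composition or gene type, and they are neither binding sites nor tests.

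Genes of sterol synthesis were lower with TGF-β1 along most of the pathway, by modest amounts. Of the 19 sterol steps, 14 were lower, 1 was higher and 4 did not pass, that is 73.7% lower against 23.2% of all tested genes. Their median log2 fold change was −0.41, and 16 of the 19 had every TGF-β1 library below both controls, against 33.0% of all genes. No sterol step passed a test against a 1.5-fold change. Without control replicate 1, which left 1 control library, fewer genes were called lower, both among the sterol steps and over all tested genes.

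**Figure D1:**
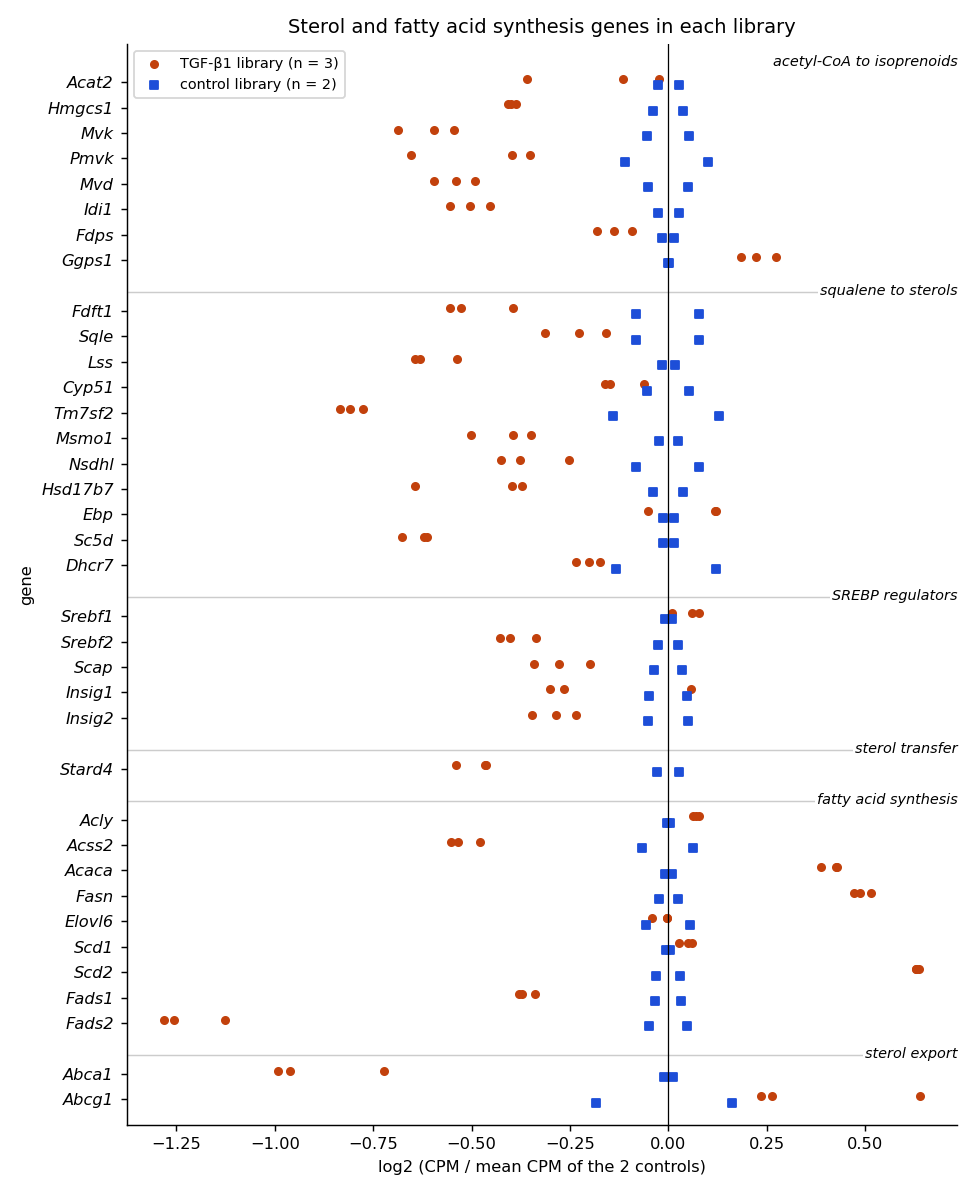
Each row is 1 gene, and each point 1 library, placed at the log2 ratio of its CPM to the mean CPM of the 2 controls (circles, 3 TGF-β1 libraries; squares, 2 control libraries). Sterol steps lie mostly left of 0 with TGF-β1, whereas Fasn, Acaca and Scd2 lie right of it, and the 3 TGF-β1 libraries of Fads2 lie farthest left.

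The section from acetyl-CoA to isoprenoids makes the building blocks shared by sterols, ubiquinone and protein prenyl groups. Hmgcs1, the cytosolic HMG-CoA synthase (ENSMUSG00000093930 on chromosome 13, 119690379 to 119708260 of GRCm38), had 107, 106 and 106 CPM in TGF-β1 libraries, against 144 and 137 CPM in controls. The groups lay well apart and the 3 TGF-β1 libraries were within 2 CPM of each other. Its mean was 107 ± 0.770 CPM with TGF-β1 and 141 ± 5.35 CPM in controls (SD, n = 3 and n = 2), a log2 fold change of −0.40 (SE 0.039, adjusted p = 3.27e-05 by edgeR). Mvk, mevalonate kinase, had 16.3, 17.4 and 17.99 CPM with TGF-β1 and 27.2 and 25.3 CPM in controls (log2 fold change −0.61, adjusted p = 0.000173 by edgeR). That was the largest decrease of this section. Pmvk, the next kinase, had 7.13 to 8.81 CPM with TGF-β1 and 10.4 and 12.1 CPM in controls (log2 fold change −0.46, adjusted p = 0.0162 by edgeR), and its call ended without control replicate 1. Mvd, the decarboxylase that follows, averaged 15.5 ± 0.558 CPM with TGF-β1 and 22.6 ± 1.14 CPM in controls (log2 fold change −0.54).

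Idi1, the isomerase of isopentenyl diphosphate, had 26.2, 25.2 and 24.4 CPM with TGF-β1 and 36.4 and 35.1 CPM in controls (log2 fold change −0.50, adjusted p = 0.000136 by edgeR). Fdps, which joins isoprene units into farnesyl diphosphate at the branch point to sterols, was lower by less. It had 84.2, 81.5 and 79.1 CPM with TGF-β1 and 88.7 and 90.6 CPM in controls (log2 fold change −0.14, adjusted p = 0.0332 by edgeR), and its call ended without either control or TGF-β1 replicate 2. Ggps1 makes geranylgeranyl diphosphate, which leads away from sterols towards protein prenylation, and it was the only sterol-section gene to rise. It had 58.7, 55.3 and 56.8 CPM with TGF-β1 and 48.7 and 48.6 CPM in controls (log2 fold change 0.23, adjusted p = 0.0046 by edgeR), a call that ended with library totals as the scaling (adjusted p = 0.0612). Acat2, the cytosolic thiolase that starts the pathway, did not pass. It had 19.9, 23.6 and 25.1 CPM with TGF-β1 and 25.1 and 26.0 CPM in controls.

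From squalene to sterols, 8 of 11 genes were lower, 0 higher and 3 did not pass (lower in 23.2% of all tested genes). Sc5d, a sterol desaturase close to the end of the pathway (ENSMUSG00000032018 on chromosome 9, 42251595 to 42264256), had 73.0, 69.9 and 72.6 CPM with TGF-β1, against 111 and 113 CPM in controls. It averaged 71.8 ± 1.70 CPM with TGF-β1 and 112 ± 1.59 CPM in controls, with a log2 fold change of −0.64 (SE 0.042, adjusted p = 2.26e-06 by edgeR), the smallest adjusted p among the sterol steps. Lss, which closes the rings to make lanosterol, had 30.4, 28.2 and 28.4 CPM with TGF-β1 and 44.5 and 43.5 CPM in controls (log2 fold change −0.60, adjusted p = 2.7e-05 by edgeR). Tm7sf2, a sterol reductase, had the largest log2 fold change of the sterol steps, −0.80, with 5.66 to 5.89 CPM with TGF-β1 and 9.15 and 11.04 CPM in controls. It was also the scarcest sterol step per length, at 1.31 CPM per kb of exon with TGF-β1 and 2.29 in controls.

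Among the enzymes that strip methyl groups from the sterol ring, Msmo1 had 74.8, 72.4 and 67.3 CPM with TGF-β1 and 93.6 and 96.8 CPM in controls (log2 fold change −0.41). Nsdhl averaged 24.9 ± 1.55 CPM with TGF-β1 and 31.7 ± 2.47 CPM in controls (log2 fold change −0.35), a call that ended without control replicate 1 (adjusted p = 0.0709 by edgeR). Hsd17b7 averaged 31.0 ± 3.13 CPM with TGF-β1 and 42.8 ± 1.57 CPM in controls (log2 fold change −0.46). All 3 of these demethylation genes thus passed, whereas Cyp51, the lanosterol demethylase, did not. Cyp51 had 106, 105 and 113 CPM with TGF-β1 and 122 and 113 CPM in controls (log2 fold change −0.12, adjusted p = 0.0696 by edgeR), and it passed without TGF-β1 replicate 3 (adjusted p = 0.0138). Fdft1, squalene synthase, averaged 40.3 ± 2.45 CPM with TGF-β1 and 56.7 ± 4.40 CPM in controls (log2 fold change −0.49). Sqle, squalene epoxidase and a known control point of the pathway, had 52.8, 56.1 and 58.8 CPM with TGF-β1 and 69.3 and 62.0 CPM in controls (log2 fold change −0.23, adjusted p = 0.0166 by edgeR). Its call ended without control replicate 1 (adjusted p = 0.18) or without TGF-β1 replicate 1 (adjusted p = 0.06).

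Ebp and Dhcr7, a sterol isomerase and a reductase of the last section, did not pass. Ebp had 17.5 to 19.7 CPM with TGF-β1 and 17.9 and 18.3 CPM in controls, with overlapping groups. Dhcr7 had 19.5 to 20.4 CPM with TGF-β1 and 20.9 and 25.0 CPM in controls (log2 fold change −0.20, adjusted p = 0.0903 by edgeR), and it passed without control replicate 2 (adjusted p = 0.0277). Stard4, a soluble protein that carries cholesterol between membranes, had 26.5, 25.1 and 26.5 CPM with TGF-β1 and 37.2 and 35.8 CPM in controls. It was lower by a log2 fold change of −0.49 (SE 0.059, adjusted p = 0.000136 by edgeR).

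Per kb of exon, Cyp51 and Hmgcs1 had the highest levels of the 19 sterol steps in both groups. Cyp51 was at 24.4 CPM per kb with TGF-β1 and 26.6 in controls, and Hmgcs1 at 23.2 with TGF-β1 and 30.6 in controls, so the larger decrease of Hmgcs1 put Cyp51 first with TGF-β1. Sc5d followed in controls (14.8 CPM per kb with TGF-β1, 23.0 in controls) and Fdps with TGF-β1 (19.4 with TGF-β1, 21.3 in controls). Lengths are the union of all annotated exons of a gene, so a gene with many rarely used exons reads too low on this scale.

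The 2 SREBP genes differed in their response. Srebf2, which encodes SREBP2, had 156, 159 and 166 CPM in TGF-β1 libraries, against 213 and 206 CPM in controls. It averaged 160.1 ± 5.26 CPM with TGF-β1 and 209.5 ± 5.28 CPM in controls, a log2 fold change of −0.39 (SE 0.0385, adjusted p = 3.55e-05 by edgeR). Srebf1 had 87.2, 90.3 and 91.4 CPM with TGF-β1 and 86.1 and 87.2 CPM in controls (log2 fold change 0.05, adjusted p = 0.387 by edgeR), so its groups nearly touched, and its sign turned with library totals (−0.0505). The ratio of Srebf2 to Srebf1 per kb, which does not depend on scaling between libraries, was 1.40, 1.38 and 1.42 in TGF-β1 libraries and 1.94 and 1.85 in controls. The difference between these genes was not tested in a model. Counts cannot separate the Srebf1 isoforms, which differ in their first exon. Srebf1 also shares 109 exonic bases with Rai1 on the opposite strand. Rai1 had 1.04 times the counts of Srebf1 and a log2 fold change of 0.21, so the Srebf1 values and this ratio are uncertain to that extent.

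Scap, the escort of both factors, had 66.4, 69.5 and 73.4 CPM with TGF-β1 and 86.3 and 82.1 CPM in controls (log2 fold change −0.27, adjusted p = 0.00267 by edgeR). Insig2, one of the retention proteins, averaged 33.4 ± 1.29 CPM with TGF-β1 and 40.8 ± 2.06 CPM in controls (log2 fold change −0.29), with adjusted p = 0.0505 without control replicate 1. Insig1, the retention protein that is itself a sensitive SREBP target, was split among the TGF-β1 libraries, at 46.2, 47.4 and 59.2 CPM, against 58.8 and 55.0 CPM in controls. It did not pass (adjusted p = 0.223 by edgeR), but without TGF-β1 replicate 3 it was lower by a log2 fold change of −0.28 (adjusted p = 0.0012). TGF-β1 replicate 3 was also the highest of its group in Srebf2, Scap, Abca1 and Abcg1. It was the lowest of its group in Insig2, Hmgcs1, Msmo1 and Hsd17b7, among others, so the members were split. In all, 3 of 5 regulators were lower (23.2% of all tested genes) and 0 higher, with a median log2 fold change of −0.27.

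**Figure D2:**
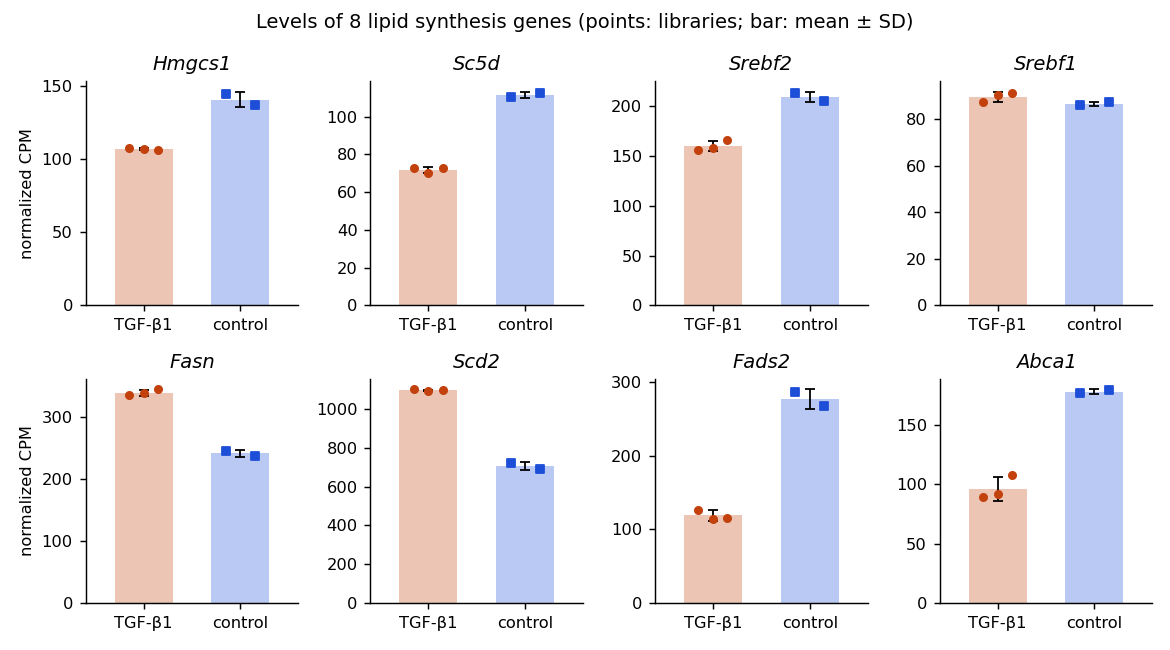
Each panel shows the normalized CPM of 1 gene, with points for the libraries and bars for the mean ± SD (3 TGF-β1 libraries left, 2 controls right). Hmgcs1, Sc5d, Srebf2, Fads2 and Abca1 are lower with TGF-β1, Fasn and Scd2 are higher, and Srebf1 lies at 89.7 ± 2.18 CPM with TGF-β1 and 86.7 ± 0.778 CPM in controls.

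Fatty acid genes moved in both directions: 3 of 9 were higher (21.3% of all tested genes), 3 lower (23.2% of all tested genes) and 3 did not pass, with a median log2 fold change of 0.05 (−0.41 for the sterol steps and 0.00 for all tested genes). The core enzymes that make saturated fatty acids and their monounsaturated products included all 3 that rose. Fasn, the fatty acid synthase (ENSMUSG00000025153 on chromosome 11, 120805846 to 120824547), had 336, 339 and 345 CPM with TGF-β1, against 246 and 238 CPM in controls. It averaged 339.9 ± 4.93 CPM with TGF-β1 and 242 ± 5.79 CPM in controls, a log2 fold change of 0.49 (SE 0.031, adjusted p = 1.52e-06 by edgeR). Acaca, the acetyl-CoA carboxylase that makes the malonyl-CoA used by Fasn, had 68.8, 70.7 and 70.9 CPM with TGF-β1 and 52.9 and 52.3 CPM in controls (log2 fold change 0.41, adjusted p = 6.89e-05 by edgeR). Scd2, a stearoyl-CoA desaturase that makes monounsaturated fatty acids (ENSMUSG00000025203 on chromosome 19, 44293674 to 44306864), had the highest level per kb of all members, at 201 CPM per kb with TGF-β1 and 130 in controls. It had 1101, 1094 and 1095 CPM with TGF-β1 and 723 and 693 CPM in controls, a log2 fold change of 0.63 (SE 0.025, adjusted p = 6.89e-08 by edgeR). None of these 3 increases passed the test against a 1.5-fold change, with adjusted p = 0.0961 for Scd2.

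Scd1, the desaturase gene 87590 bases from Scd2, did not share the increase, with 163, 160.4 and 164 CPM with TGF-β1 and 158 and 157 CPM in controls (log2 fold change 0.05, adjusted p = 0.302 by edgeR). The ratio of Scd2 to Scd1 per kb was 6.05, 6.11 and 5.98 in TGF-β1 libraries and 4.10 and 3.96 in controls. Scd3 and Scd4, related copies in the same cluster, were at most 3.24 CPM in every library, and Scd3 swung among the TGF-β1 libraries (0, 3.24 and 3.10 CPM, against 0.393 and 0.214 CPM in controls). The handling of reads shared by these copies is not stated, so the Scd values are uncertain to that extent.

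The members that supply acetyl-CoA, and the elongase Elovl6, were not called higher. Acly, which splits citrate into cytosolic acetyl-CoA, had 215, 212 and 214 CPM with TGF-β1 and 204 and 203 CPM in controls (log2 fold change 0.07, adjusted p = 0.0878 by edgeR). Acss2, which makes acetyl-CoA from acetate, was scarce and lower, at 6.56, 6.24 and 6.31 CPM with TGF-β1 and 9.55 and 8.73 CPM in controls (log2 fold change −0.52, adjusted p = 0.00484 by edgeR). Elovl6, the elongase of saturated and monounsaturated chains, had 23.2 to 23.8 CPM with TGF-β1 and 22.9 and 24.8 CPM in controls, with the TGF-β1 libraries inside the range of the controls. Plin2, the lipid droplet coat protein on the adipocyte and lipofibroblast marker list, was higher (226 ± 8.64 CPM with TGF-β1 and 127 ± 0.936 CPM in controls). Lpl, the lipoprotein lipase on the same list, was lower (12.3 ± 1.16 CPM with TGF-β1 and 88.1 ± 2.93 CPM in controls), and that list summed to 230.4 to 245 CPM with TGF-β1 and 215 and 221 CPM in controls. Its part in the fatty acid values was not tested. The signs of Acly and Scd1 turned with library totals, which lowered all log2 fold changes by about 0.10.

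The polyunsaturated branch was lower. Fads2, the desaturase that starts the conversion of linoleic and linolenic acid to long polyunsaturated fatty acids (ENSMUSG00000024665 on chromosome 19, 10062765 to 10101746), had 127, 114 and 116 CPM in TGF-β1 libraries, against 286 and 267 CPM in controls. This was the largest change of the 36 members: 119 ± 6.88 CPM with TGF-β1 and 277 ± 13.4 CPM in controls, or 2.33-fold lower (log2 fold change −1.22, SE 0.051, adjusted p = 1.06e-07 by edgeR). Fads1, the next desaturase of that branch, lies 81141 bases from Fads2. It had 159, 160.1 and 164 CPM with TGF-β1 and 212 and 202 CPM in controls (log2 fold change −0.36, adjusted p = 3.23e-05 by edgeR). The ratio of Fads2 to Fads1 per kb was 1.16, 1.04 and 1.03 in TGF-β1 libraries and 1.97 and 1.93 in controls, so the decreases were unequal. The ratio of Fads2 to Fasn was 1.26, 1.12 and 1.12 with TGF-β1 and 3.87 and 3.74 in controls.

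Summed over genes per kb, sterol steps reached 191 to 192 CPM per kb in TGF-β1 libraries and 234 and 244 in controls. The 9 fatty acid genes summed to 380.4 to 386 with TGF-β1 and to 349.7 and 365 in controls. The ratio of these sums was 0.497, 0.501 and 0.498 in TGF-β1 libraries and 0.669 and 0.669 in controls. Scd2 made up 52.2% to 52.6% of the fatty acid sum with TGF-β1 and 36.3% in both controls. Without Scd2 the ratio was 1.04 to 1.06 with TGF-β1 and 1.05 in both controls, so the contrast was absent. Without both Scd2 and Fads2, a choice made after the values were seen, it was 1.31, 1.31 and 1.29 with TGF-β1 and 1.68 and 1.65 in controls. Whether the sums showed a contrast thus depended on which of these genes were included. Fads2 was at 36.1 CPM per kb with TGF-β1 and 84.0 in controls, and Fasn at 31.0 with TGF-β1 and 22.1 in controls. These sums describe levels and carry no test.

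**Figure D3:**
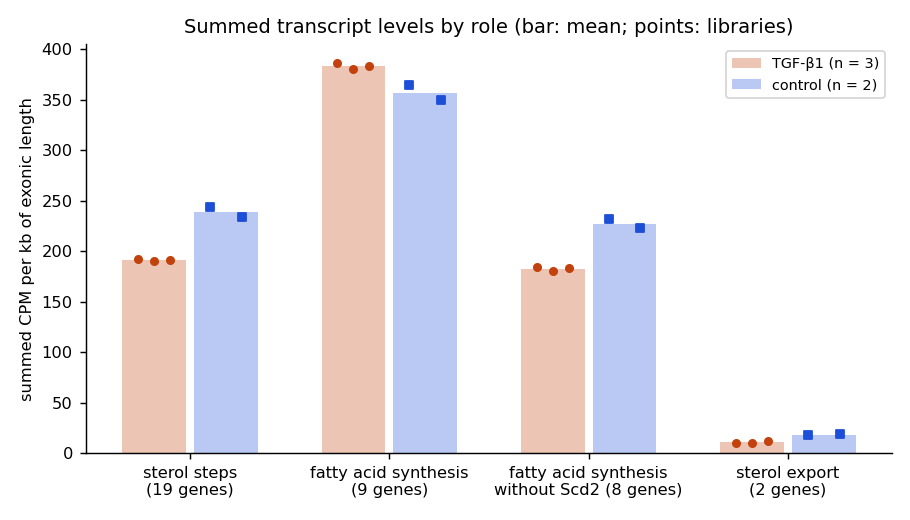
Bars are mean summed levels in CPM per kb of exonic length, and points are libraries (3 TGF-β1 left, 2 controls right in each pair). The 9 fatty acid genes sum higher with TGF-β1, and the same genes without Scd2 sum lower, at 183 against 228 CPM per kb in controls.

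Of the sterol exporters, Abca1 was lower and Abcg1 did not pass. Abca1, which loads cholesterol onto lipid-poor apolipoproteins (ENSMUSG00000015243 on chromosome 4, 53030787 to 53159895), had 89.7, 91.7 and 108 CPM in TGF-β1 libraries, against 177 and 179.7 CPM in controls. It averaged 96.5 ± 10.1 CPM with TGF-β1 and 178 ± 1.91 CPM in controls, 1.85-fold lower (log2 fold change −0.89, SE 0.071, adjusted p = 8.53e-06 by edgeR). Abca1 and Fads2 were the only members that passed the test against a 1.5-fold change. Abcg1, which passes cholesterol to mature lipoprotein particles, had 12.2, 12.4 and 16.1 CPM with TGF-β1 and 9.10 and 11.6 CPM in controls. Its groups did not overlap, but it did not pass (log2 fold change 0.39, adjusted p = 0.0669 by edgeR), and it passed without TGF-β1 replicate 1 (adjusted p = 0.0484). The ratio of Abca1 to Abcg1 per kb was 5.19, 5.21 and 4.73 with TGF-β1 and 13.7 and 10.95 in controls. Both exporters are known to be abundant in macrophages, and 4 of the 5 leukocyte markers were also lower with TGF-β1. Lyz2 averaged 1137 ± 11.7 CPM with TGF-β1 and 1994 ± 49.4 CPM in controls. Marco averaged 3.41 ± 0.409 CPM with TGF-β1 and 18.5 ± 1.51 CPM in controls. Cd68 had a log2 fold change of −0.71 and Csf1r one of −0.20, whereas Ptprc rose by a log2 fold change of 0.29. The part of these cells in the exporter values was not tested.

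The counts of 6 members are uncertain, since their exons overlap those of a gene with a total above 0.1 times theirs: Ggps1, Fdft1, Cyp51, Tm7sf2, Srebf1 and Acss2. Fdft1 shares 774 exonic bases with Ctsb on the opposite strand, whose total was 24.5 times its own and whose log2 fold change was −0.40. Tm7sf2 shares 532 bases with Vps51 on the same strand. The library kit keeps strand, but how strand was treated in counting is not stated. Leaving out these 6 genes, 12 of 15 sterol steps were lower, 0 higher and 3 did not pass. Among all tested genes 23.2% were lower and 21.3% higher. Acss2, 1 of the 3 lower fatty acid genes, shares 395 exonic bases with Gss on the opposite strand, whose log2 fold change was 0.48. It also shares 197 with Ggt7, whose log2 fold change was −0.21.

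Further genes of the pathway were read from 4 lists. Of 13 genes of SREBP processing and sterol sensing, 6 were higher (21.3% of all tested genes), 1 was lower (23.2% of all tested genes) and 6 did not pass, with a median log2 fold change of 0.09. Fbxw7, which targets nuclear SREBP for degradation, had 31.2, 29.3 and 32.4 CPM with TGF-β1 and 20.0 and 20.8 CPM in controls (log2 fold change 0.60). Rnf145, a sterol-responsive ubiquitin ligase, averaged 109 ± 6.77 CPM with TGF-β1 and 80.1 ± 1.12 CPM in controls (log2 fold change 0.44). Pgrmc1, a heme-binding membrane protein that binds cytochromes P450 such as Cyp51, fell to 141 ± 0.948 CPM with TGF-β1, against 223 ± 3.43 CPM in controls (log2 fold change −0.67).

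Of 12 genes of the isoprenoid branch, which use farnesyl and geranylgeranyl groups rather than make sterol, 3 were higher, 2 lower and 7 did not pass (median log2 fold change 0.06), shares near the 21.3% and 23.2% of all tested genes. Rabggtb, a subunit of the enzyme that prenylates Rab proteins, averaged 47.6 ± 1.85 CPM with TGF-β1 and 35.8 ± 1.40 CPM in controls (log2 fold change 0.41). Icmt, which methylates prenylated proteins, averaged 114 ± 5.46 CPM with TGF-β1 and 87.8 ± 5.04 CPM in controls (log2 fold change 0.38). Pdss2, for the ubiquinone side chain, averaged 6.19 ± 0.0436 CPM with TGF-β1 and 7.74 ± 0.346 CPM in controls (log2 fold change −0.32), a call that ended when any 1 of the libraries was left out.

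Of 24 genes of LXR and sterol handling, 5 were higher, 10 lower and 9 did not pass (median log2 fold change −0.18), against 21.3% higher and 23.2% lower among all tested genes. Ch25h, which makes an oxysterol that restrains SREBP processing, fell to 8.08, 7.93 and 4.63 CPM with TGF-β1, against 24.7 and 23.0 CPM in controls (log2 fold change −1.79, SE 0.19, adjusted p = 6.02e-05 by edgeR). Gramd1b, which moves cholesterol from the plasma membrane to the endoplasmic reticulum, averaged 22.0 ± 1.64 CPM with TGF-β1 and 41.9 ± 4.10 CPM in controls (log2 fold change −0.93). Abca7, a relative of Abca1, averaged 20.4 ± 1.13 CPM with TGF-β1 and 32.5 ± 0.539 CPM in controls (log2 fold change −0.67). Ch25h is also known from activated macrophages. Both Ch25h and the sum of the leukocyte markers, which was mostly Lyz2, were below the controls in all 3 TGF-β1 libraries. The part of macrophages in the Ch25h values was not tested.

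Of 23 further genes of fatty acid and glyceride synthesis, 20 were tested, 2 were higher, 10 lower and 8 did not pass (median log2 fold change −0.21), against 21.3% higher and 23.2% lower among all tested genes. Hacd2, a dehydratase of the elongation cycle, averaged 19.6 ± 0.705 CPM with TGF-β1 and 43.2 ± 0.467 CPM in controls (log2 fold change −1.14). Lpin1, a phosphatidate phosphatase and known SREBP target, averaged 15.9 ± 0.851 CPM with TGF-β1 and 27.1 ± 0.602 CPM in controls (log2 fold change −0.77). Gpam, which starts glycerolipid assembly, averaged 58.6 ± 1.54 CPM with TGF-β1 and 86.8 ± 0.909 CPM in controls (log2 fold change −0.57). These 3 were named for the size of their change. The 2 higher genes of the list, named after their values were seen, were Hsd17b12, the reductase of the elongation cycle, and Dgat1, which completes triglyceride synthesis. Hsd17b12 averaged 128 ± 3.96 CPM with TGF-β1 and 100.01 ± 4.75 CPM in controls (log2 fold change 0.36), and Dgat1 averaged 24.3 ± 0.829 CPM with TGF-β1 and 18.6 ± 2.69 CPM in controls (log2 fold change 0.39).

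**Figure D4:**
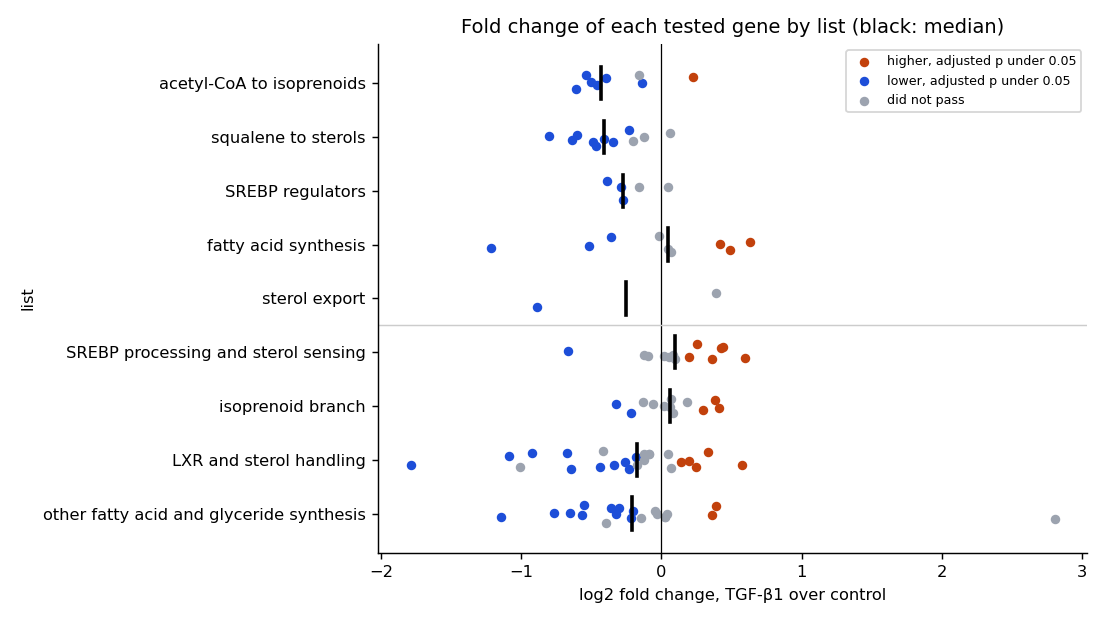
Each point is 1 tested gene, placed at its log2 fold change of TGF-β1 over control, with black bars for list medians; points are coloured by call at an adjusted p of 0.05. The top 5 rows are members and the lower 4 rows are the further lists, and the sterol sections have medians of −0.43 and −0.41.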

How the data were processed

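Messenger RNA from cultured mouse lung fibroblasts was sequenced in 3 TGF-β1 and 2 control libraries. The deposited values are raw counts of reads for each gene, in 1 table for all libraries. STAR 2.5.3a, StringTie 1.3.1c and the mouse build mm10 are listed, without roles, in the submitters' processing notes. Which tool counted the reads, with which strand setting and annotation, is not given in the sources used here. The protocols in the labels name a stranded mRNA kit.

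Columns were matched to samples by title. Gene IDs were matched to GENCODE M21 (GRCm38, the assembly behind mm10), giving symbols, coordinates and exonic lengths for 55154 of 55335 IDs. Counts were filtered with filterByExpr, scaled with TMM and tested with edgeR 4.0.16 in R 4.3.3 (two-sided quasi-likelihood F test on group). P-values were adjusted by Benjamini-Hochberg across the 16380 genes that passed, with a threshold of 0.05. SE is the absolute log2 fold change over the square root of F. Permuting 3 and 2 libraries exactly gives no p under 0.1, so the p-values depend on edgeR's sharing of variance among genes. The lowest count of any member in a library was 228 (Tm7sf2). The members and all lists were chosen with earlier results of these data known. All members were named, and from each further list at most 3 called genes averaging 5 CPM or more, the largest changes first. On simulated counts for this comparison (16380 genes), edgeR called 17 of 50 genes changed 1.25-fold, 28 of 50 at 1.5-fold and 18 unchanged genes. The simulation left 16180 genes unchanged, whereas 44.5% of tested genes were called in the data. Its changed genes were drawn over all expression levels. These rates therefore do not give the chance of calling a member. The alternatives were 3 other scalings, 2 other filters, DESeq2 1.42.0, limma-voom (limma 3.58.1), a test against a 1.5-fold change, a replicate block and leaving out each library. Tables were made with pandas 2.3.3 in Python 3.11.15 and figures with matplotlib 3.10.9. Promoter windows came from RefSeq on GRCm38.p6.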

Additional observations from a re-analysis of the deposited data

How the results depend on the processing

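The 14 sterol steps lower became 14 to 16 under the other scalings, filters and tools and with the replicate block. They became 13 to 15 when 1 TGF-β1 library was left out. Without control replicate 1, which left 1 control library, fewer genes were called lower, both among the sterol steps and over all tested genes. The 3 higher and 3 lower fatty acid genes and the lower Abca1 kept their counts under all of these. Against a null of 1.5-fold, the sterol steps had 0 higher and 0 lower, the regulators 0 lower, and fatty acid synthesis 0 higher and 1 lower. The further lists then had 0 higher each, with 0 lower in the isoprenoid branch, 2 lower in LXR and sterol handling and 2 lower in other fatty acid and glyceride synthesis, and over all genes 563 were higher and 1223 lower. With library totals, 2325 genes were higher and 4921 lower (3488 and 3799 with TMM), the sterol steps had 0 higher, SREBP processing had 3 lower, and LXR and sterol handling 1 higher and 15 lower. The signs of Ebp (−0.0351), Srebf1 (−0.0505), Acly (−0.0294) and Scd1 (−0.0537) then turned. Elovl6, with 1 library left out, ran from −0.0706 to 0.0421, and was above 0 without control replicate 1 and without TGF-β1 replicate 2 (0.00232). The 2 lower isoprenoid genes became 1 without the low-count filter, with DESeq2, with the replicate block and without each library in turn (1 to 1). LXR and sterol handling had 2 higher without the filter and 2 to 4 higher with 1 library left out. Other fatty acid and glyceride synthesis then had 1 to 3 higher and sterol export 0 to 1 higher. The cause of these shifts was not tested.

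The labels do not state whether same-numbered TGF-β1 and control libraries were paired. Their deviations from the group means correlated at 0.0159 and 0.0161. The deviations of the 2 controls mirror each other, so these values cannot decide whether libraries shared a culture or batch. With the replicate number as a block, 15 sterol steps and 4 regulators were lower. By edgeR, Acat2 (adjusted p = 0.039), Cyp51 (0.0124) and Insig1 (0.00135) passed and Fdps (0.0651) did not. TGF-β1 replicate 3 had no control of its number, so this fit drew the group difference from the other libraries. Leaving out TGF-β1 replicate 3 also gave 15 sterol steps and 4 regulators lower. The block is thus not a separate check from leaving out that library. With 3 and 2 libraries, small fold changes can be missed.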
